A study of Mus musculus with 12 samples.

Results

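Lymphocyte and neutrophil genes were followed in heart ventricle RNA of C57BL/6J mice whose fathers had or had not received a heart injury. The 33 genes, chosen by name from known markers, fall into 9 T cell genes, 5 B cell genes, 4 genes of natural killer (NK) and other cytotoxic cells, 14 neutrophil genes and the pan-leukocyte gene Ptprc. All 33 were found among the 78317 gene IDs of the table, which holds 12 libraries. In the injured-sire group, 6 uninjured offspring came from males given a cardiac cryoinjury (a freezing lesion of the heart) on postnatal day 1, and in the uninjured-sire group 6 uninjured offspring came from males without one. By the labels, the first group held 3 males and 3 females and the second 4 males and 2 females, but the sex of each animal was not stated. They dated collection to 3 wpp but called the animals adult, and they named no sire, litter or batch per animal, so the p-values rest only on how these samples vary, and litters may be shared. Injured-sire replicate 16, an outlier by its label, was left out of the tests, so 5 libraries stood against 6.

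T cells recognise peptides through a receptor whose constant chain Trac pairs with the Cd3 subunits, and the kinase Lck carries the signal inward together with Cd4 or Cd8. B cells carry membrane immunoglobulin, built from heavy chains such as Ighm and light chains such as Igkc, on the Cd79a and Cd79b signalling pair. NK and cytotoxic T cells kill with granzymes, and neutrophils are short-lived blood cells that store antimicrobial proteins in successive sets of granules during their maturation in bone marrow. A resting heart holds few of these cells, so in bulk RNA their transcripts are rare, and fewer cells of a type and less RNA per cell cannot be told apart.

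The libraries held 30537315 to 42090257 counts, and the cardiomyocyte gene Myh6 lay at 31705 to 42949 counts per 1000000 (CPM) in all 12. Of the 33 members, 23 to 30 were detected by 1 count or more per injured-sire library and 25 to 32 per uninjured-sire library. A gene with 0 counts may lie anywhere below the level of 3 counts, which is 0.0713 to 0.0974 CPM in these libraries, for counting error only. The libraries differed in genes of tissues other than heart. Airway genes reached a summed 732 CPM in injured-sire replicate 15 and 452 CPM in uninjured-sire replicate 18, against 0.974 CPM in uninjured-sire replicate 23. Fat genes summed to 647 CPM in injured-sire replicate 15 and to 61.7 CPM in uninjured-sire replicate 20. Some thymus genes stood out in injured-sire replicate 17. Hearts were washed in PBS, and haemoglobin and platelet genes summed to 2620 ± 275 CPM (SD, n = 5) in injured-sire and 3094 ± 468 CPM (SD, n = 6) in uninjured-sire libraries. Of these 9 genes 8 were tested, 2 above and 6 below 0, with 0 called by edgeR, DESeq2 (no adjusted p for 1) or limma voom and 2, 2 and 0 at an unadjusted p below 0.05. In edgeR 8.96% of all genes tested had such a p. Uninjured-sire replicates 18 and 23, the highest in T and B cell genes, had 2984 and 2514 CPM of them, and the part of blood RNA in the members' values was not tested.

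No member was called different between the groups. Of the 24 members with enough counts to be tested, 0 were called (edgeR's quasi-likelihood F test, p below 0.05 after Benjamini-Hochberg adjustment over 17130 genes), where 18 of all genes tested, or 0.105%, were called. At an unadjusted p below 0.05 there was 1 of 24 members, Ngp, against 8.96% of all genes tested. The DESeq2 Wald test and limma voom also called 0 of 24 and gave 1 each at an unadjusted p below 0.05. Over all 17130 genes tested DESeq2 called 130 and limma voom 21. Their share of all genes at an unadjusted p below 0.05 was not computed, so their counts at that p have no background, for the members or for any list. DESeq2 gave no adjusted p for 6 of the 8 T cell and 3 of the 10 neutrophil members tested. Ngp was among these 3, so DESeq2 could not call it. The groups' CPM overlapped for each of the 24 members, and 1.05% of all genes tested had groups that did not overlap. The standard errors of the members' log2 fold changes ran from 0.285 to 1.09 with a median of 0.665, against a median of 0.126 over all genes tested. The 95% confidence interval ran from -3.11 to 1.78 for Lck and from -0.99 to 0.34 for Cd4, on the log2 scale.

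**Figure D1:**
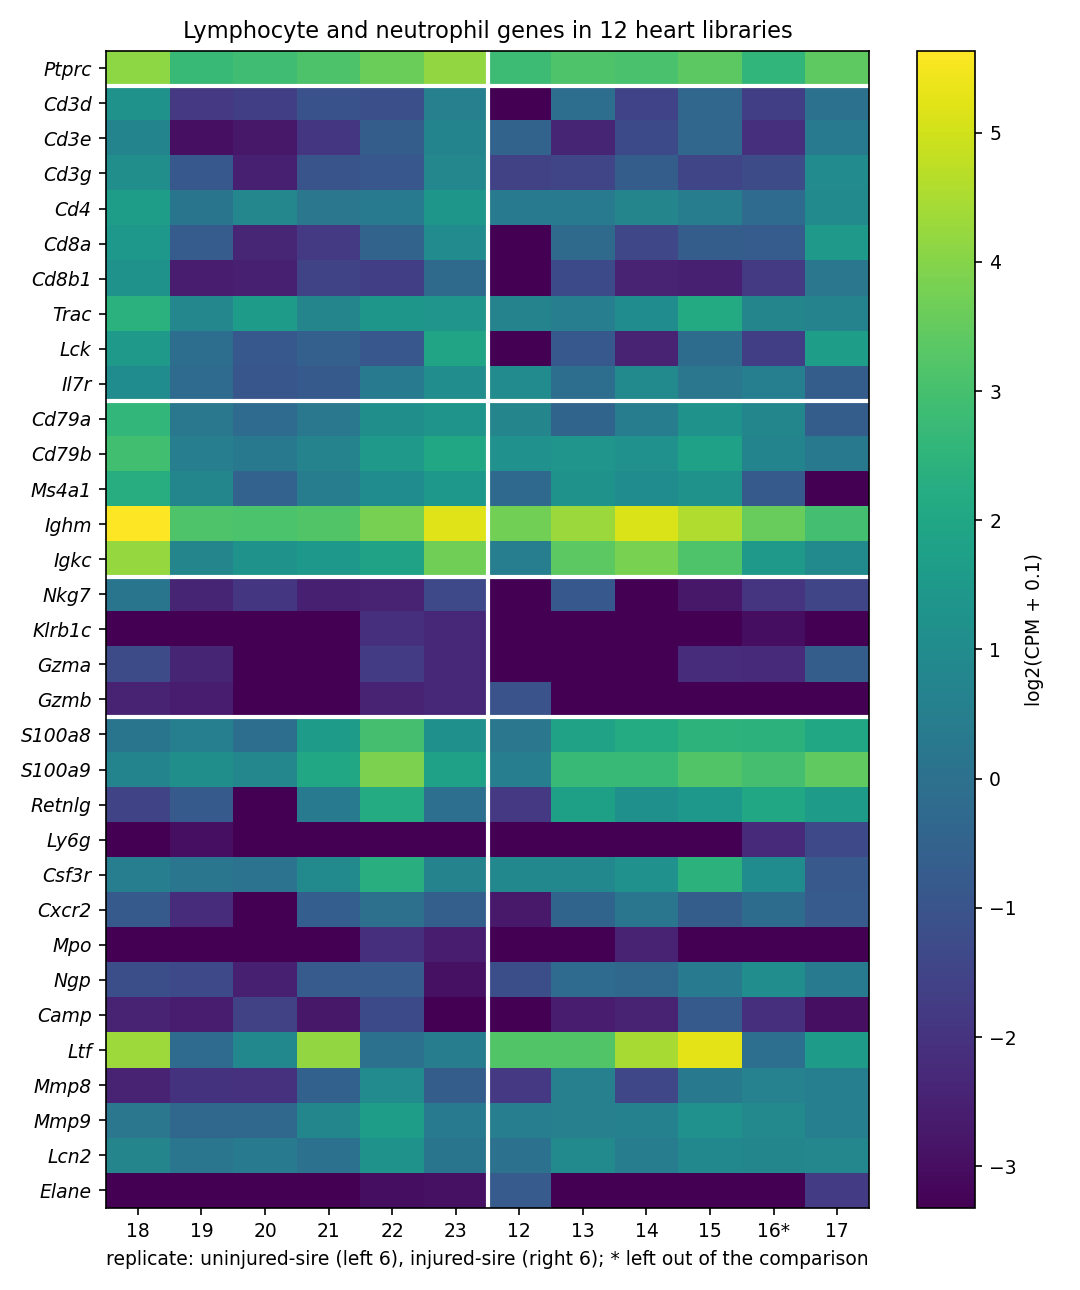
Level of each of the 33 genes (rows, ordered as pan-leukocyte, T cell, B cell, NK and cytotoxic, neutrophil) in each of the 12 libraries (columns), as log2(CPM + 0.1). Ighm and Ltf reach the brightest cells, the NK and cytotoxic rows are dark nearly throughout, and single columns such as uninjured-sire replicates 18 and 23 stand out across the T and B cell rows.

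Ptprc encodes CD45, the phosphatase on the surface of nearly all leukocytes. Its counts were 269, 295, 299, 432 and 361 in injured-sire replicates 12, 13, 14, 15 and 17, and 220 to 610 with a median of 407 in the uninjured-sire libraries. Uninjured-sire replicates 18 and 23 held the highest values, and the injured-sire values lay within the range of the other group. The log2 fold change, injured-sire minus uninjured-sire, was -0.37 ± 0.285 (SE, edgeR adjusted p = 0.778).

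Of the 9 T cell genes, 8 were tested, 7 with a fitted value below 0 and 1 above, with a median log2 fold change of -0.35. Over all genes tested 8574 lay above 0 and the median was 0.000193. Cd8b1, the beta chain of the CD8 coreceptor, did not pass the filter on low counts. The sum of the 9 genes was 8.57 ± 3.85 CPM (SD, n = 5) in injured-sire and 10.98 ± 7.94 CPM (SD, n = 6) in uninjured-sire libraries. The medians of the sums were 6.84 CPM and 6.74 CPM. The plot of summed levels shows 3 libraries above the rest: uninjured-sire replicates 18 and 23 had 23.8 and 17.99 CPM, injured-sire replicate 17 had 14.8, and the other 8 libraries compared lay between 5.09 and 9.71. Without uninjured-sire replicate 18, 5 of 8 genes lay above 0 and the median was 0.09.

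Lck, the kinase bound to the CD4 and CD8 tails (chromosome 4, 129442137 to 129467434, GRCm39), had 0, 15, 3, 33 and 109 counts in injured-sire replicates 12, 13, 14, 15 and 17. Its uninjured-sire counts ran from 16 to 112 with a median of 26. A single injured-sire library, replicate 17, thus held most of the group's reads, and the groups overlapped (log2 fold change -0.66, SE 1.09, edgeR adjusted p = 0.919). Cd8a, the CD8 alpha chain (chromosome 6, 71350411 to 71356157), followed with 0, 25, 10, 22 and 92 counts in the same order, against 4 to 92 with a median of 20. Its log2 fold change was -0.22 ± 1.06 (SE, edgeR adjusted p = 0.975), and Cd8b1 had its highest counts, 79 and 37, in uninjured-sire replicate 18 and injured-sire replicate 17. Replicates 17 and 18 thus led for each CD8 chain.

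The signalling subunits of the receptor lie together on chromosome 9. Cd3g (44880870 to 44891729) had 9, 9, 19, 11 and 65 counts in injured-sire replicates 12, 13, 14, 15 and 17, and 3 to 72 with a median of 16.5 in the uninjured-sire group. Cd3d (44893084 to 44898637) had 0, 28, 9, 28 and 32 against 6 to 81, and Cd3e (44910038 to 44920925) had 24, 3, 11, 28 and 41 against 1 to 55. All 3 had their highest count in uninjured-sire replicate 18, and their log2 fold changes ran from -0.57 (Cd3d) over -0.41 (Cd3g) to -0.13 (Cd3e), with SEs of 0.740 to 0.852.

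Trac (chromosome 14, 54457978 to 54461663) was the T cell gene with the highest level per length, a mean of 2.55 CPM per kilobase of exon over the 12 libraries. It had 57, 44, 71, 179 and 51 counts in the injured-sire libraries compared and 56 to 184 with a median of 85.5 in the other group (log2 fold change -0.37, SE 0.347, edgeR adjusted p = 0.820). Injured-sire replicate 17, the highest of its group for Cd3g, Cd8a and Lck, was the second lowest for Trac. Cd4, the coreceptor of helper T cells, had the smallest SE of the tested T cell genes, with 41 to 62 counts against 34 to 111 (log2 fold change -0.33 ± 0.320, SE). Il7r, the receptor for the survival cytokine interleukin-7, was the tested T cell gene above 0 (log2 fold change 0.13 ± 0.436, SE), with 73, 28, 65, 45 and 18 counts against 18 to 69. In Il7r, injured-sire replicate 17 was the lowest of its group.

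**Figure D2:**
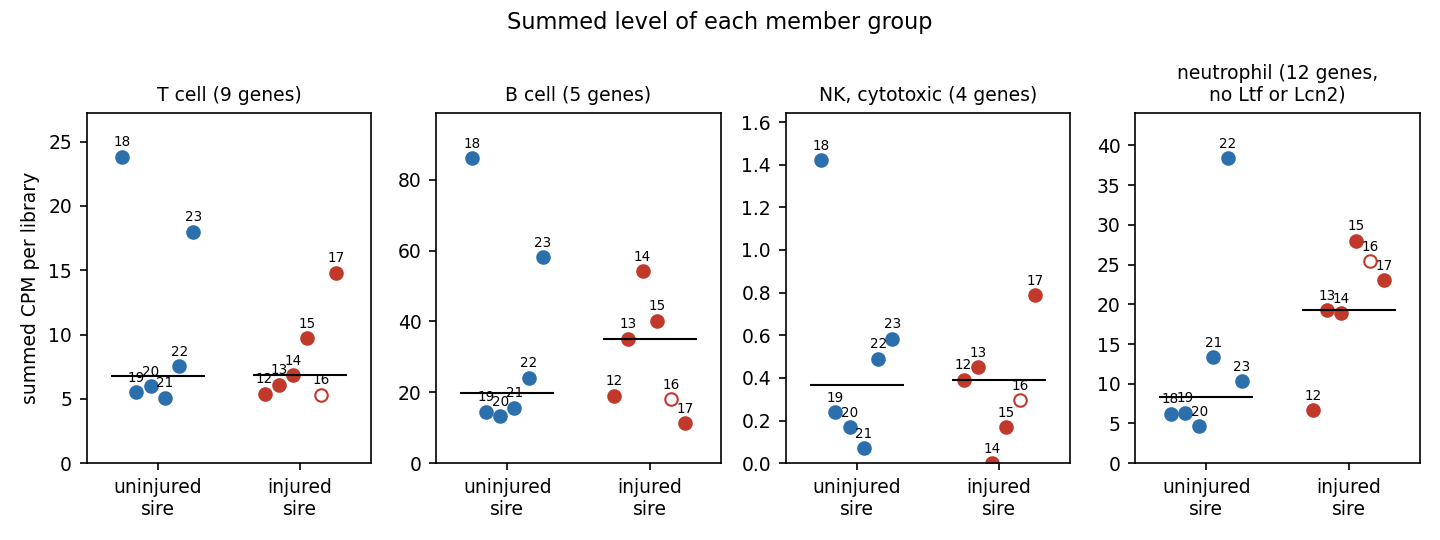
Summed CPM per library (y axis) of the T cell, B cell, NK and cytotoxic, and neutrophil genes (without Ltf and Lcn2), for uninjured-sire (blue) and injured-sire (red) libraries; numbers are replicates, the open circle is replicate 16, which was left out, and lines are medians of the libraries compared. Uninjured-sire replicate 18 is highest for T, B and NK genes, and uninjured-sire replicate 22 for neutrophil genes.

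The T cell values of injured-sire replicate 17 came with high counts of some thymus genes, a choice made with their values in view. Rag1, a recombinase that assembles antigen receptor genes in immature lymphocytes, had 190 counts there and at most 18 in any other library. Dntt, which adds bases at the receptor junctions, had 78 counts there, 13 in uninjured-sire replicate 18 and 0 in the other 10. Prss16 and Psmb11, a protease and a proteasome subunit of thymus epithelium, had 88 and 54 counts in replicate 17, against at most 7 and 6 elsewhere. Rag2 had 27 counts in replicate 17 and at most 10 elsewhere. Not all genes listed peaked in that library. Ptcra had 0 counts in it and 5 in uninjured-sire replicate 22. Aire had 7 against 8 in uninjured-sire replicate 18, and Arpp21 had 65 against 75 in uninjured-sire replicate 22. The 10 thymus genes listed summed to 19.7 CPM in that library, 4.81 to 7.18 in the other 4 injured-sire and 5.17 to 8.44 in the uninjured-sire libraries, most of it from Cd1d1 and Arpp21 outside replicate 17. Foxn1 was at 0 in all 11, and 2 of the 10 genes passed the filter, with 0 called by edgeR, DESeq2 (no adjusted p for 1) or limma voom and 0 at an unadjusted p below 0.05. Without replicate 17 the log2 fold change of Lck was -2.08 and that of Cd8a -1.34, and neither was called. The part of thymus RNA in the T cell values was otherwise not tested.

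**Figure D3:**
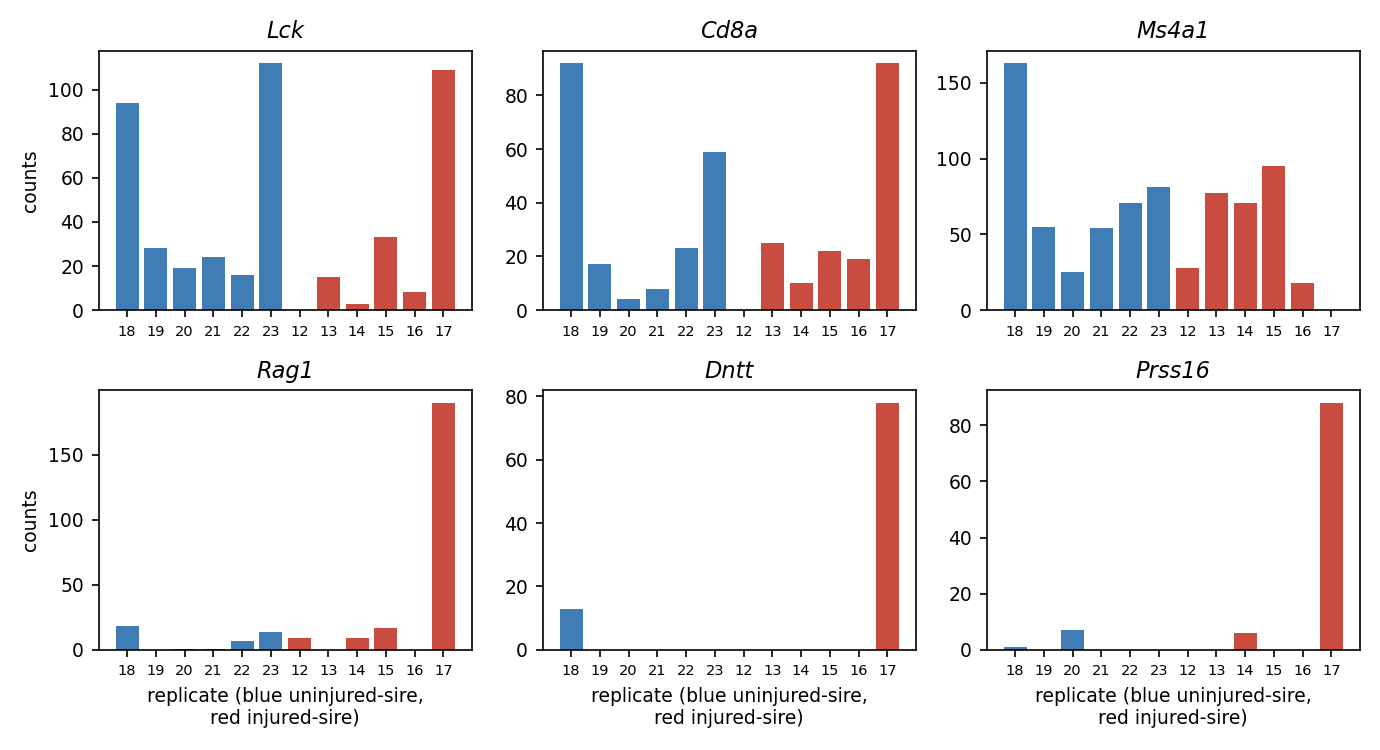
Counts (y axis) of 2 T cell genes, the B cell gene Ms4a1 and 3 thymus genes in each of the 12 libraries (x axis, replicate number). Replicate 17 has the tallest bar for Rag1 (190), Dntt (78) and Prss16 (88), is high for Lck (109) and Cd8a (92), and has no count of Ms4a1.

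Of the 5 B cell genes all were tested, 4 with a fitted value below 0 and 1 above, with a median log2 fold change of -0.41. Their sum was 32.0 ± 17.1 CPM (SD, n = 5) in injured-sire and 35.3 ± 30.1 CPM (SD, n = 6) in uninjured-sire libraries, and Ighm gave 55.6 to 69.3% of the group's counts in each of the 12 libraries. The medians of the summed levels lay in the other direction from the means, at 35.2 CPM in injured-sire and 19.9 CPM in uninjured-sire libraries. Without uninjured-sire replicate 18 the median log2 fold change of the 5 was 0.11.

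Ighm, the constant part of the IgM heavy chain (chromosome 12, 113382178 to 113386350), had 506, 651, 1260, 973 and 264 counts in injured-sire replicates 12, 13, 14, 15 and 17. In the uninjured-sire group it had 296 to 1742 with a median of 448. Replicates 18 and 23 of that group held 1742 and 1123 counts and the other 4 at most 510, so the higher and lower libraries of each group interleaved (log2 fold change -0.09, SE 0.609, edgeR adjusted p = 0.981). Igkc, the constant part of the kappa light chain (chromosome 6, 70703419 to 70703950), had 50, 340, 514, 365 and 64 counts against 54 to 647 with a median of 120.5 (log2 fold change 0.09, SE 0.842, edgeR adjusted p = 0.988). It had the highest level per length of all 33 genes, a mean of 12.6 CPM per kilobase against 10.5 for Ighm.

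Cd79a, 1 of the 2 signalling chains of the B cell receptor (chromosome 7, 24596806 to 24601622), had the largest fitted difference of the tested lymphocyte members. It had 61, 21, 47, 97 and 18 counts in the injured-sire and 32 to 210 with a median of 60 in the uninjured-sire libraries. The fitted difference was -0.80 ± 0.555 on the log2 scale (edgeR adjusted p = 0.743). The value of 210 belonged to replicate 18, without which the log2 fold change was -0.21. Its partner Cd79b (chromosome 11, 106202167 to 106205588) had 85, 81, 81, 139 and 39 counts against 45 to 266 (log2 fold change -0.41 ± 0.499, SE), and 0.11 without replicate 18. Ms4a1, which encodes CD20 (chromosome 19, 11227039 to 11243605), had 28, 77, 71, 95 and 0 counts against 25 to 163 with a median of 63 (log2 fold change -0.53, SE 0.788, edgeR adjusted p = 0.904). Injured-sire replicate 17, high in T cell genes, held the group's lowest count of 4 of the 5 B cell genes, all but Igkc.

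B cell genes were high in the same libraries. Over the 12 libraries, the log2(CPM + 0.1) of Cd79b was related to that of Ighm with Pearson's r of 0.897 (permutation p = 0.0001, adjusted 0.0004) and Spearman's rho of 0.944 (permutation p = 2e-05, the smallest these resamples can give, adjusted 0.00024). Without the 2 libraries farthest from the median of Cd79b, uninjured-sire replicates 18 and 20, r was 0.840, and within the groups of 6 it was 0.776 (injured-sire) and 0.967 (uninjured-sire). Cd79a, Ms4a1 and Igkc followed Cd79b with r of 0.740 to 0.859 and rho of 0.776 to 0.867 (permutation, adjusted p at most 0.00403 for r and 0.00595 for rho). These are 4 of 12 relations computed, adjusted together. With the values in view, injured-sire replicates 13, 14 and 15 and uninjured-sire replicates 18 and 23 had the highest B cell sums. These were 35.2, 54.2, 40.2, 86.1 and 58.1 CPM, and no other library exceeded 24.2 CPM. Their fat genes summed to 583, 538, 647, 546 and 523 CPM, and those of any other library to at most 350 CPM. The part of fat RNA in the B cell values was not tested.

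The 4 NK and cytotoxic genes were near the limit of detection and none was tested. Nkg7, a granule membrane protein gene, had 0, 15, 0, 2 and 9 counts in injured-sire replicates 12, 13, 14, 15 and 17, and 3 to 36 with a median of 5 in the uninjured-sire libraries, the 36 in replicate 18. Gzma, the gene of granzyme A, had 0, 0, 0, 5 and 18 counts against 0 to 11, and Gzmb, that of granzyme B, had 15 counts in injured-sire replicate 12, 0 in the other 4 and 0 to 3 in the uninjured-sire libraries. Klrb1c, the NK1.1 receptor gene, had 0 counts in all 5 injured-sire libraries and 8 in all over the uninjured-sire libraries, so no fold is given. In the fit without a filter 0 of the 9 members that had failed it were called (lowest edgeR adjusted p = 0.318), against 236 of 38125 over all genes. Of these 9, Klrb1c and Elane had an unadjusted edgeR p below 0.05, and the share of all genes in that fit was not computed. Klrb1c rests on the 8 counts above, and Elane on 26 injured-sire counts, 19 of them in replicate 12, against 2. The summed level of the 4 genes was 0 to 0.788 CPM in injured-sire and 0.0713 to 1.42 CPM in uninjured-sire libraries.

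Other lymphocyte genes, from lists written with earlier results of these data known, also had fitted values mostly below 0. Of 24 further T cell genes 19 were tested, 18 below 0 and 1 above (median log2 fold change -0.39), of 20 further B cell genes 18, with 14 below and 4 above (median -0.62), and of 15 further NK and cytotoxic genes 4, all below 0 (median -1.38). None of these 41 was called by edgeR, with 3 at an unadjusted p below 0.05, against 8.96% of all genes tested. DESeq2 and limma voom also called none, with 7 and 2 at an unadjusted p below 0.05, but DESeq2 gave no adjusted p for 12 of the 19 T cell, 11 of the 18 B cell and all 4 NK and cytotoxic genes. The share of all genes at such a p was not computed for DESeq2 and limma voom. The smallest p of each list belonged to Ctla4, an inhibitory receptor of T cells, with means of 1.69 (SD 0.500) CPM in injured-sire and 2.64 (SD 0.237) CPM in uninjured-sire libraries, Fcer2a, the IgE receptor CD23 of B cells, and Il2rb, an interleukin-2 receptor chain. Their log2 fold changes were -0.64 ± 0.229 (SE, edgeR adjusted p = 0.370), -1.40 ± 0.629 (0.521) and -1.04 ± 0.527 (0.581). The next in each list were Ms4a4b (-1.23 ± 0.544), Ebf1, a B cell transcription factor (0.23 ± 0.113), and the protease gene Ctsw (-1.73 ± 0.950). Ebf1 had means of 31.6 CPM in injured-sire and 27.0 CPM in uninjured-sire libraries, where Cd79a had 1.28 and 2.24. Ebf1 was not high in uninjured-sire replicate 18 (988 counts, against 1089 in injured-sire replicate 12). Whether its reads came from B cells was not tested. Ctla4 had 107, 91 and 110 counts in uninjured-sire replicates 18, 19 and 20. The 9 T cell members summed to 837, 185 and 249 counts there. Among the injured-sire libraries compared, replicate 17 was the highest in both, with 83 and 507 counts. Whether the reads of Ctla4 came from T cells was not tested. Uninjured-sire replicate 18 held the highest sum of each of these 3 lists, 81.1, 105 and 14.1 CPM.

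Neutrophil genes had fitted values on the other side of 0. Of the 14, 10 were tested and each of the 10 had a fitted value above 0, with a median log2 fold change of 0.53. Ngp alone had an unadjusted p below 0.05. The 4 that failed the filter were Ly6g, Mpo, Camp and Elane. The sum of the 12 genes other than Ltf and Lcn2 was 19.2 ± 7.89 CPM (SD, n = 5) in injured-sire and 13.2 ± 12.7 CPM (SD, n = 6) in uninjured-sire libraries, with medians of 19.3 and 8.33 CPM, and the highest value of all, 38.4 CPM, was that of uninjured-sire replicate 22. Without it the median log2 fold change was 1.06 and 4 members had an unadjusted p below 0.05, but 0 were called. In that setting the genes called over all genes also rose, from 18 to 43 of 16916. The share of all genes at an unadjusted p below 0.05 there was not computed. Injured-sire replicate 12 stood with the low uninjured-sire libraries at 6.69 CPM, and replicate 16, left out, had 25.5 CPM.

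The start regions of 4 neutrophil genes are shown. S100a8 and S100a9 encode partner subunits and were closely related across the libraries. Ngp and Ltf, stored in the same granules, had the largest fitted differences of the tested neutrophil members. Each line gives the 250 bases before the gene's start, 5′ to 3′ on the gene's strand, from RefSeq on GRCm38.p6. The regions are chr3:90668821-90669070 (plus strand), chr3:90695722-90695971 (minus strand), chr9:110419558-110419807 (plus strand) and chr9:111019042-111019291 (plus strand). Capitals mark matches, on either strand, to TATAAA, the TATA box, and to TTGCNNAA, a form of the site bound by C/EBP factors, which include the granulocyte regulator Cebpe.
S100a8: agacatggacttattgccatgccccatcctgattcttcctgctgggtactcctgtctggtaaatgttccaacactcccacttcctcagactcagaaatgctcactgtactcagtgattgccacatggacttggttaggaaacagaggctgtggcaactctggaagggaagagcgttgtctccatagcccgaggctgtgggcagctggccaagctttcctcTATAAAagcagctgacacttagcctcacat
S100a9: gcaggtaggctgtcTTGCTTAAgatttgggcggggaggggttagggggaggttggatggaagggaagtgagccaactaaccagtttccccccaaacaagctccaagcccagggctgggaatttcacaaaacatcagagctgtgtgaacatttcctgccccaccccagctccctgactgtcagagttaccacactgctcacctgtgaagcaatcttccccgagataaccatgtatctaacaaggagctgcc
Ngp: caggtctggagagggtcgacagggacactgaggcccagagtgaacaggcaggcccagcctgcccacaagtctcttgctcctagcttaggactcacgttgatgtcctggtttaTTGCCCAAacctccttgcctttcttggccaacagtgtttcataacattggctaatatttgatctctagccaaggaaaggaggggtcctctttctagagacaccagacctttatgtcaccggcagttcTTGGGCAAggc
Ltf: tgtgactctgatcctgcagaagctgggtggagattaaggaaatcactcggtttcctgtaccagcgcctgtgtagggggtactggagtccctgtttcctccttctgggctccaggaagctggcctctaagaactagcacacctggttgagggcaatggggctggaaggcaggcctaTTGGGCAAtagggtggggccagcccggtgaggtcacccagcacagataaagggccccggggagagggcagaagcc
S100a8 has a TATA box starting 30 bases before the start and no TTGCNNAA, S100a9 and Ltf have 1 TTGCNNAA each, and Ngp has 2. Of the 25 members with an entry, 7 of 13 neutrophil genes, 2 of 6 T cell genes, 0 of 4 NK and cytotoxic genes, 0 of 1 B cell gene and not Ptprc held TTGCNNAA, against 9.56% of 32851 regions of this length. TATAAA was in 2 of the 13 neutrophil genes and in 12.4% of all regions. Some members have more than 1 start region and were counted on a match in any of them, while the percentages are of single regions. A match describes the letters only.

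S100a8 and S100a9 encode the 2 subunits of calprotectin, the main cytosolic protein of neutrophils. S100a8 (chromosome 3, 90576285 to 90577342, GRCm39) had 41, 117, 161, 226 and 134 counts in injured-sire replicates 12, 13, 14, 15 and 17, and 35 to 285 with a median of 56 in the uninjured-sire group. S100a9 (chromosome 3, 90599939 to 90603028) had 50, 217, 237, 379 and 371 counts against 55 to 527 with a median of 87. In each, 4 of 5 injured-sire libraries lay above the uninjured-sire median and replicate 12 below it, and uninjured-sire replicate 22 was highest of all. Their log2 fold changes were 0.46 ± 0.625 (SE, edgeR adjusted p = 0.896) and 0.60 ± 0.705 (adjusted p = 0.869). Retnlg, a resistin-like secreted protein gene of neutrophils (chromosome 16, 48692984 to 48694859), had 7, 110, 78, 109 and 99 counts against 0 to 162 with a median of 21.5 (log2 fold change 0.88, SE 1.01, edgeR adjusted p = 0.867). Replicate 12 was again the lowest of the injured-sire group and uninjured-sire replicate 22 the highest of all.

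The calprotectin subunits went together over the 12 libraries, with Pearson's r of 0.969 for log2(CPM + 0.1) (permutation p = 2e-05, adjusted 0.00024) and Spearman's rho of 0.916 (permutation p = 0.0001, adjusted 0.0006). Without uninjured-sire replicates 18 and 20, the farthest from the median of S100a8, r was 0.964, and within the groups of 6 it was 0.941 and 0.988. Retnlg followed S100a8 with r of 0.955, Mmp8 with 0.877, Mmp9 with 0.841, Cxcr2 with 0.814, Ngp with 0.682 and Lcn2 with 0.651. Over these 8 relations rho was 0.664 to 0.916. Csf3r, the receptor for the growth factor G-CSF (chromosome 4, 125918343 to 125938233), had the lowest r, 0.558 (permutation p = 0.0572, adjusted 0.0572), and the other 7 had an adjusted permutation p of at most 0.0257. Within the uninjured-sire group its r was 0.956 and within the injured-sire group 0.212. Its injured-sire counts were 66, 57, 81, 219 and 16, the last in replicate 17, where S100a9 had 371, and its uninjured-sire counts were 35 to 181 (log2 fold change 0.25 ± 0.585, SE). Cxcr2, the chemokine receptor that draws neutrophils into tissue, had 2, 21, 38, 22 and 17 counts against 0 to 33 (log2 fold change 0.35 ± 0.729, SE).

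Ngp, neutrophilic granule protein, a secondary granule gene (chromosome 9, 110248815 to 110252080), had the largest fitted difference of the tested members. It had 13, 26, 25, 48 and 42 counts in injured-sire replicates 12, 13, 14, 15 and 17 and 1 to 21 with a median of 11 in the uninjured-sire libraries. Of 5 injured-sire libraries 4 lay above the highest uninjured-sire count, and replicate 12 did not. The mean level was 0.838 ± 0.363 CPM (SD, n = 5) against 0.289 ± 0.200 CPM (SD, n = 6). On the log2 scale the fitted difference was 1.52 ± 0.577, with an edgeR p of 0.0153 and an adjusted p of 0.402. Replicate 16 had the highest count of all libraries, 75, and with it included the log2 fold change was 1.82 (edgeR adjusted p = 0.258, the lowest over the alternatives, which ran up to 0.694). The DESeq2 Wald test is not in this range, as it gave no adjusted p for Ngp.

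Ltf, the iron-binding lactoferrin, is a secondary granule gene that glandular and airway epithelium also expresses (chromosome 9, 110848339 to 110871835). It had 350, 303, 798, 1588 and 100 counts in injured-sire replicates 12, 13, 14, 15 and 17 and 26 to 757 with a median of 56 in the uninjured-sire libraries, and gave 2.23 to 71.6% of all neutrophil counts of a library. The libraries fell into separate sets. The 7 with at least 627 counts of Scgb1a1, the main secretory protein gene of the airways, had 100 to 1588 counts of Ltf, and the other 5, with 8 to 57 counts of Scgb1a1, had 26 to 72. All 5 injured-sire libraries compared were among the 7, and of the uninjured-sire libraries only replicates 18 and 21. S100a8 did not divide in this way: its highest count, 285, came from uninjured-sire replicate 22, with 57 counts of Scgb1a1, and its second lowest, 36, from uninjured-sire replicate 18, with 5574. Of 13 airway and lung genes 11 were tested, all above 0, with 0 called by edgeR, DESeq2 (no adjusted p for 2) or limma voom and 0, 0 and 4 at an unadjusted p below 0.05. They summed to 45.4 to 732 CPM in injured-sire and 0.974 to 452 CPM in uninjured-sire libraries. The log2 fold change of Ltf was 1.20 ± 1.03 (SE, edgeR adjusted p = 0.811), and -0.26 with an airway score as a covariate. That covariate left 6 of the 10 tested neutrophil members above 0, with a median of 0.21, and Ngp at 1.09 (edgeR adjusted p = 0.694). Airway content and group went partly together, since all 5 injured-sire libraries compared, but only uninjured-sire replicates 18 and 21, were high in Scgb1a1. That fit therefore cannot tell the 2 apart.

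**Figure D4:**
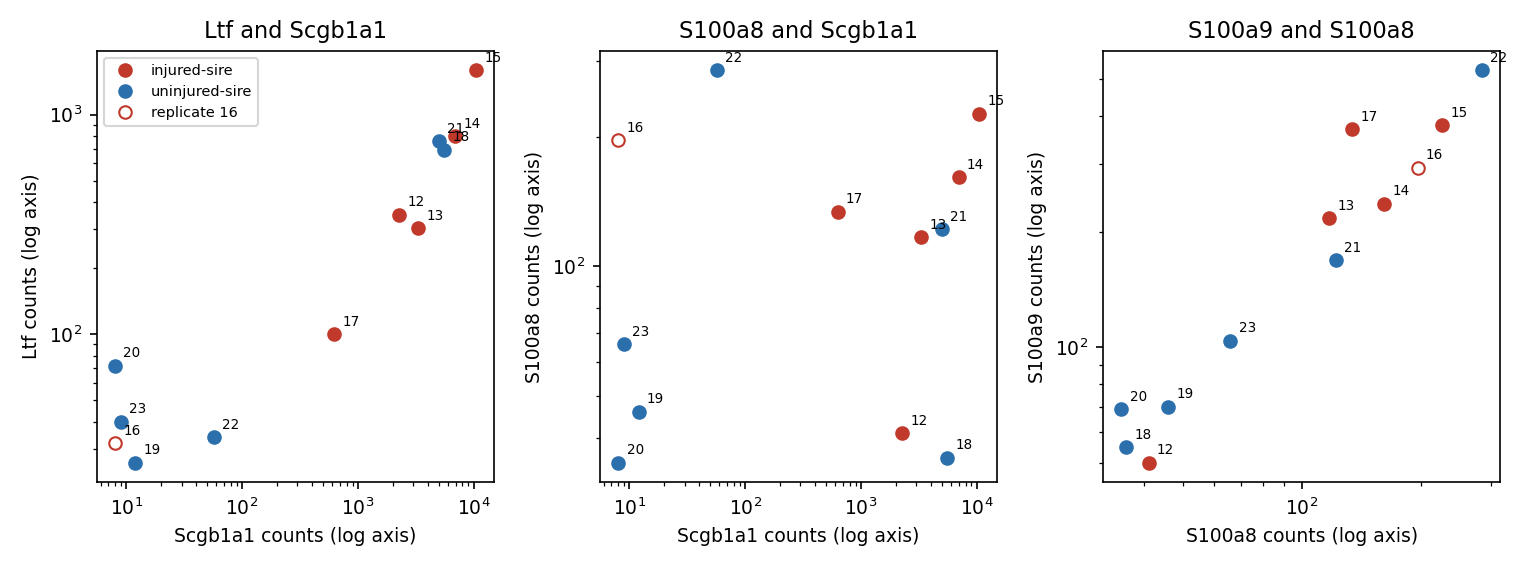
Counts per library on log axes, for Ltf against Scgb1a1 (left), S100a8 against Scgb1a1 (middle) and S100a9 against S100a8 (right); numbers are replicates and the open circle is replicate 16. Ltf is at 100 or more only where Scgb1a1 is at 627 or more, while S100a8 has its highest count, 285, at 57 counts of Scgb1a1, and S100a9 follows S100a8.

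Lcn2, the iron-siderophore binding protein lipocalin 2, is likewise made by neutrophils and by epithelium. It was among the steadiest members, with 35, 62, 46, 72 and 57 counts against 31 to 86 with a median of 44 (log2 fold change 0.14, SE 0.311, edgeR adjusted p = 0.941). Mmp8 and Mmp9 are metalloproteases that neutrophils store. Mmp8 (collagenase) had 7, 46, 10, 47 and 47 counts against 3 to 69 with a median of 11 (log2 fold change 0.62 ± 0.724, SE). Mmp9 (gelatinase) had 51, 46, 52, 92 and 46 counts against 24 to 116 with a median of 38 (log2 fold change 0.11 ± 0.355, SE). In both, uninjured-sire replicate 22 was the highest of its group and the groups overlapped.

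Genes of early granules were nearly absent. Mpo, myeloperoxidase, had 3 counts in injured-sire replicate 14, 5 and 2 in uninjured-sire replicates 22 and 23, and 0 in the other 9 libraries. Elane, neutrophil elastase, had 19 counts in injured-sire replicate 12 and 7 in replicate 17, 0 in the other 3, and 0 to 1 in the uninjured-sire group. Camp, the cathelicidin gene of secondary granules, had 0, 2, 3, 20 and 1 counts against 0 to 11. Ly6g, the surface marker used to sort mouse neutrophils, had 10 counts in injured-sire replicate 17, 4 in replicate 16, 1 in uninjured-sire replicate 19 and 0 in the other 9. Reads that fit several places were not counted, so Ly6g, which has close relatives, is uncertain.

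**Figure D5:**
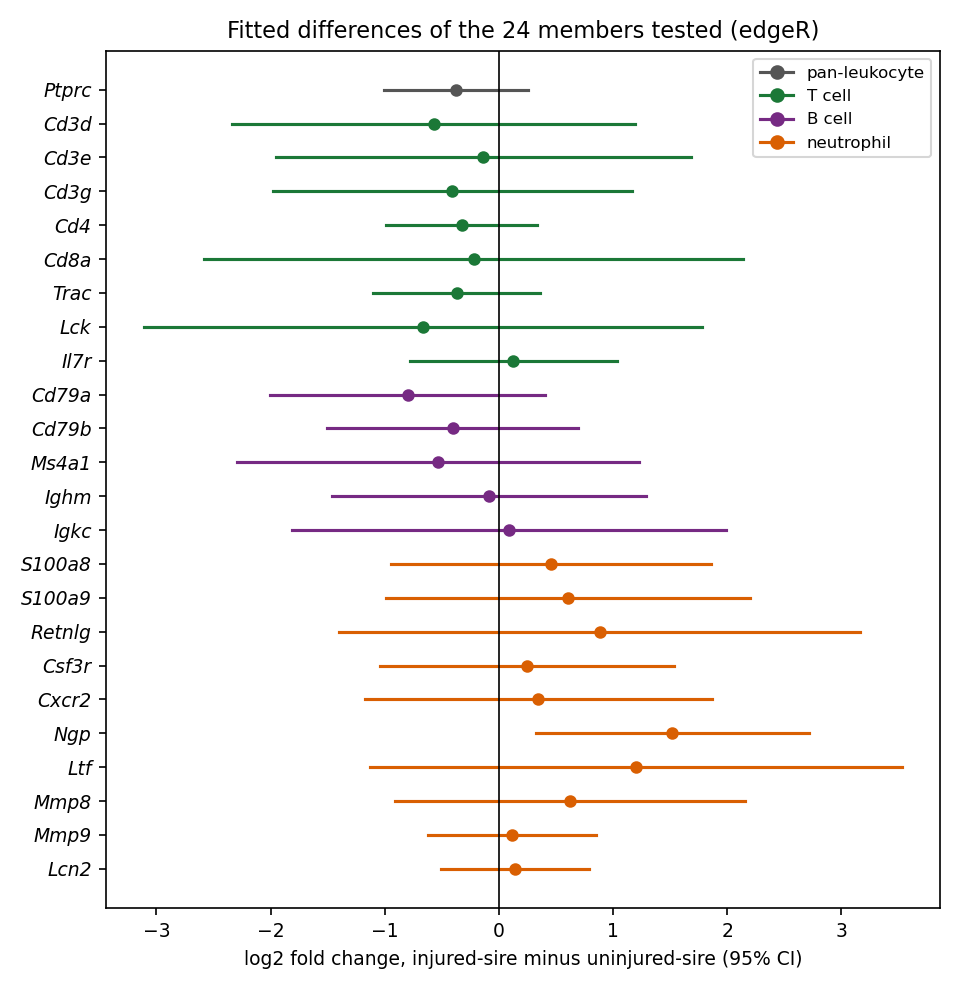
Fitted log2 fold change (injured-sire minus uninjured-sire, 5 against 6 libraries) of the 24 tested genes with 95% confidence intervals from edgeR. The lymphocyte genes other than Il7r and Igkc lie below 0 and the neutrophil genes above it, and each interval except that of Ngp spans 0.

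Further neutrophil genes did not lean to 1 side. Of 24 listed 10 were tested, 5 above and 5 below 0 (median log2 fold change 0.00114), with 0 called by edgeR, DESeq2 or limma voom and 0 at an unadjusted p below 0.05 in each, and DESeq2 gave no adjusted p for 4 of the 10. The smallest p belonged to Hdc, histidine decarboxylase, with means of 6.21 (SD 1.83) CPM in injured-sire and 4.56 (SD 1.59) CPM in uninjured-sire libraries. Its fitted difference was 0.44 ± 0.225 (edgeR adjusted p = 0.586). The next was Clec4d, a C-type lectin receptor gene of myeloid cells, at -0.75 ± 0.508 (adjusted p = 0.721). Of 22 chemokines, cytokines and adhesion genes that draw leukocytes into tissue, 17 were tested, 6 above and 11 below 0 (median -0.06). None was called, with 1 at an unadjusted p below 0.05 in each of edgeR, DESeq2 and limma voom, and DESeq2 gave no adjusted p for 6 of the 17. The lead genes were Icam2, an endothelial adhesion molecule, at -0.17 ± 0.0799 (SE, edgeR adjusted p = 0.524), and Sele, E-selectin, at 0.67 ± 0.479 (adjusted p = 0.749). Macrophage genes, the main leukocyte genes of heart, summed to 277 to 351 CPM in injured-sire and 311 to 370 CPM in uninjured-sire libraries, far above any lymphocyte or neutrophil set. All 12 were tested, 2 above and 10 below 0 (median log2 fold change -0.10). edgeR and limma voom called 0 and DESeq2 called 1, Cx3cr1, the fractalkine receptor gene, and each of the 3 tools gave 4 at an unadjusted p below 0.05. Over all 17130 genes tested DESeq2 called 130, and 8.96% had an unadjusted edgeR p below 0.05. In edgeR these 4, named with their values in view, were Cx3cr1 (-0.71 ± 0.200), Fcgr1 (-1.05 ± 0.312), C1qa (-0.24 ± 0.0734) and C1qc (-0.22 ± 0.0813), with adjusted p of 0.229 to 0.393. The most abundant members of the list were Lyz2 (-0.13 ± 0.139) and Csf1r (-0.07 ± 0.0941). The part of macrophage RNA in the members' values was not tested.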

How the data were processed

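Bulk RNA-seq counts of 12 heart ventricle libraries were used. The deposited table holds raw read counts per Ensembl gene, without normalization, made by the authors with featureCounts 2.1.1 on Ensembl release 114 (GRCm39), strand setting 2, without multi-mapping reads, per the file headers. STAR 2.7.10a and Subread 2.0.3 are listed in the submitters' processing notes. A further 11 sample columns match none of the 12 samples and were left unused. Symbols came from GENCODE M21 (51487 of 78317 IDs, 99.3% of counts). Library pairs within a group differed by more than sampling noise (chi-square divided by its degrees of freedom, 14.3 to 45.4 in 30 pairs).

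The members and lists were chosen with earlier results of these data known. In R 4.3.3, edgeR 4.0.16 was run on all genes, without replicate 16: filterByExpr (minimum count 10, minimum total 15), TMM factors, robust quasi-likelihood F test, two-sided, Benjamini-Hochberg adjustment, threshold 0.05. CPM use TMM factors of the 12 libraries. SEs come from the F statistic. Named were all 33 members, the 2 genes with the smallest p of each further list, and the 2 most abundant of other cell types' lists where a result touched them. Alternatives included DESeq2 1.42.0 and limma 3.58.1 voom. Correlations used 100000 permutations, two-sided. The chain was tested on simulated data.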

Additional observations from a re-analysis of the deposited data

Results flagged for a closer look

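In 22 of 78 sets of values, 1 library lay far from the other libraries of its group, where chance gives about 1 in 20 if values are normally distributed. Replicate 16 was left out of these sets and of the ranges below. It had 0.108 CPM of Ly6g, 0.135 of Camp and 1.78 of Mmp9. That rate does not hold for low, skewed counts, and a set with 0 in all libraries but 1 always stands out this way. Injured-sire replicate 17 stood above its group in Cd3g (1.90 CPM, others 0.235 to 0.522), Cd8a (2.69, others 0 to 0.751), Cd8b1 (1.08, others 0 to 0.300), Lck (3.18, others 0 to 0.795), Gzma (0.526, others 0 to 0.120), Ly6g (0.292, others 0) and the sum of the thymus genes (19.7, others 4.81 to 7.18). Uninjured-sire replicate 18 did so in Cd8b1 (2.25 CPM, others 0.0595 to 0.747), Trac (5.23, others 1.57 to 2.92), Cd79a (5.97, others 0.766 to 2.40) and Nkg7 (1.02, others 0.0713 to 0.292).

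Uninjured-sire replicate 22 stood apart in 5 neutrophil genes: S100a8 (7.77 CPM, others 0.838 to 2.90), S100a9 (14.4, others 1.56 to 4.02), Retnlg (4.42, others 0 to 1.21), Csf3r (4.94, others 0.958 to 1.85) and Mmp8 (1.88, others 0.0853 to 0.594). Injured-sire replicate 15 stood apart in Trac (4.31 CPM, others 1.32 to 1.95), Camp (0.482, others 0 to 0.0824) and Mmp9 (2.22, others 1.33 to 1.43). Single low counts set apart Gzmb in injured-sire replicate 12 (0.392 CPM), Mpo in injured-sire replicate 14 (0.0824) and Ly6g in uninjured-sire replicate 19 (0.0297), each against 0 in the rest of its group.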

How the results depend on the processing

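No paired analysis was possible because the groups share no replicate number. Over 22 settings the members gave 520 values, 0 of them called and 47 with the sign reversed, and 10 of 24 members were never reversed. The number of genes called over all genes tested, 18, became 236 without a filter, 28 with at least 1 CPM in 5 libraries, 130 with the DESeq2 Wald test and 8 to 43 with 1 library left out (among injured-sire libraries 28 when replicate 12 was left out, 8 for replicate 13 and 9 for replicate 14, and among uninjured-sire libraries 43 for replicate 22 and 9 for replicate 23). With 1 library left out, the median log2 fold change ran from -0.72 to 0.09 for T cell, -0.59 to 0.11 for B cell and 0.35 to 1.06 for neutrophil members. The sex-linked covariate gave medians of -0.05 for T cell (4 of 8 above 0) and -0.02 for B cell members, and the airway covariate -1.03 for B cell members (5 of 5 below 0). limma voom gave -0.04 for B cell members, and leaving out injured-sire replicate 17 with uninjured-sire replicate 18 gave 0.28. The NK and cytotoxic members gave no median, since none passed the filter. Leaving out 1 library reversed Cd3d (-0.86 to 0.11), Cd3e (-0.57 to 0.37), Cd3g (-1.38 to 0.079), Cd8a (-1.34 to 0.36), Il7r (-0.089 to 0.37), Cd79b (-0.59 to 0.11), Ighm (-0.39 to 0.37), Igkc (-0.30 to 0.69), Csf3r (-0.33 to 0.78), Cxcr2 (-0.020 to 0.70) and Mmp9 (-0.055 to 0.52). A covariate from sex-linked genes reversed Cd3d (0.0048), Cd3e (0.30), Cd8a (0.17) and Ighm (0.36). The airway covariate reversed Il7r (-0.076), Igkc (-0.72), Csf3r (-0.29), Cxcr2 (-0.20), Ltf (-0.26) and Mmp9 (-0.12). limma voom reversed Cd3e (0.47) and Ighm (0.30), and all 12 libraries together reversed Igkc (-0.071). Without injured-sire replicate 17 and uninjured-sire replicate 18, a setting chosen after seeing the data, Trac (0.022), Cd79b (0.28), Ms4a1 (0.18) and Ighm (0.57) reversed. The cause was not tested. Low counts limit the NK and cytotoxic genes and Ly6g, Mpo, Camp and Elane.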

Other observations

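The ratio of S100a9 to S100a8 counts, for 2 subunits of 1 protein, ran from 1.22 to 2.77 over the 12 libraries. The ratio of Igkc to Ighm counts ran more widely, from 0.0988 to 0.522. Retnlg ran from 0 to 0.940 counts per count of S100a8.

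Fat genes, set beside the B cell sums above, summed to 238 to 647 CPM in injured-sire and 61.7 to 546 CPM in uninjured-sire libraries. All 8 had a fitted value above 0 (median log2 fold change 0.69), with 0 called by edgeR, DESeq2 (no adjusted p for 1) or limma voom and 0, 0 and 1 at an unadjusted p below 0.05. Mast cell genes summed to 8.50 to 15.1 CPM against 11.7 to 17.7 CPM, and 5 of 6 were tested, 2 above and 3 below 0, with 0 called (DESeq2 gave no adjusted p for 1) and 0 at an unadjusted p below 0.05 in each of the 3 tools.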
